A study of Mus musculus with 12 samples.

Results

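A set of 45 mouse genes of the extracellular matrix and of the enzymes that remodel it was followed in 12 libraries from whole tumours. The genes were taken from a list of collagens, matrix glycoproteins, proteoglycans, lysyl oxidases, matrix metalloproteinases and their tissue inhibitors, and each was found by mapping its gene identifier to its symbol. All 45 of 45 were found among the 56884 genes of the count tables, and 45 of 45 passed the filter on low counts, which left 17757 genes for testing. The tumours were made of TS/A cells, a mouse mammary carcinoma line, together with cancer-associated fibroblasts, and the genotype is given as WT. Each of 4 groups held 3 libraries: untreated tumours, which the series describes as given vehicle (control), tumours after radiotherapy (RT), tumours given muFAP-4-1BBL, an agonist (FAP41BBL), and tumours that had radiotherapy as well as the agonist (RT_FAP41BBL). The agonist joins the costimulatory ligand 4-1BBL to a part that binds FAP, a surface protease of activated fibroblasts. The study asked how gene expression in the tumour differs between these treatments. The tumours come from 1 carcinoma line with added fibroblasts. Dose, harvest time, animal and batch were not given in the sources used here, so p-values measure the spread between these libraries, which may be technical.

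The extracellular matrix is the scaffold of proteins outside cells. Fibroblasts secrete most of its fibrillar collagens, which lysyl oxidases cross-link, small proteoglycans space into fibrils, and glycoproteins such as fibronectin connect to integrins on cells. Basement membrane collagens form sheets under epithelium and around vessels. Matrix metalloproteinases cut these proteins and are held in check by tissue inhibitors of metalloproteinases, and in carcinomas the balance between them is a standard way to describe how the stroma is remodelled.

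Libraries held 34076477 to 42067481 counts, 39367317 to 42067481 in RT and 34076477 to 39069755 in the other groups. Values are CPM, a gene's counts scaled to a fixed library total after normalisation by the trimmed mean of M-values (TMM). The 45 genes together took 1.92% to 3.22% of the counts of a library. Control replicate 1 stood apart from the other control libraries for these genes: it was the lowest of the 3 for 39 of 45 genes. FAP41BBL replicate 1 was the lowest of its group for 33 of 45 and FAP41BBL replicate 3 the highest for 34 of 45, whereas the RT_FAP41BBL libraries shared the lowest place nearly evenly (14, 15 and 16 genes). The fibroblast marker list (10 genes) gave summed levels of 550 to 852 CPM in control and 612 to 877 CPM in RT. It gave 562 to 988 CPM with FAP41BBL and 630 to 688 CPM with RT_FAP41BBL. In RT 1 of its 10 genes, Tagln, passed the test, 10% beside 9.62% of all genes tested. Fap, which encodes the agonist's target, read 7.83 ± 2.83 CPM in control, 14.1 ± 3.29 in RT, 10.8 ± 7.11 with FAP41BBL and 7.68 ± 2.37 with RT_FAP41BBL (SD, n = 3). Of the carcinoma list, Krt8 was present at 231 to 437 CPM, while Epcam did not exceed 8.18 CPM and Cldn4 did not exceed 3.35 CPM in any library. Skeletal muscle markers differed strongly between libraries. The 20 genes summed to 7257 to 16046 CPM in RT and 256 to 927 CPM in control. They summed to 253 to 2620 CPM with FAP41BBL and 749 to 1316 CPM with RT_FAP41BBL. In RT against control 12 of 20 passed the test, all higher, beside 6.57% of all genes higher. In bulk samples, fewer cells of a type and less RNA per cell cannot be told apart, and this holds for every gene below.

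**Figure D1:**
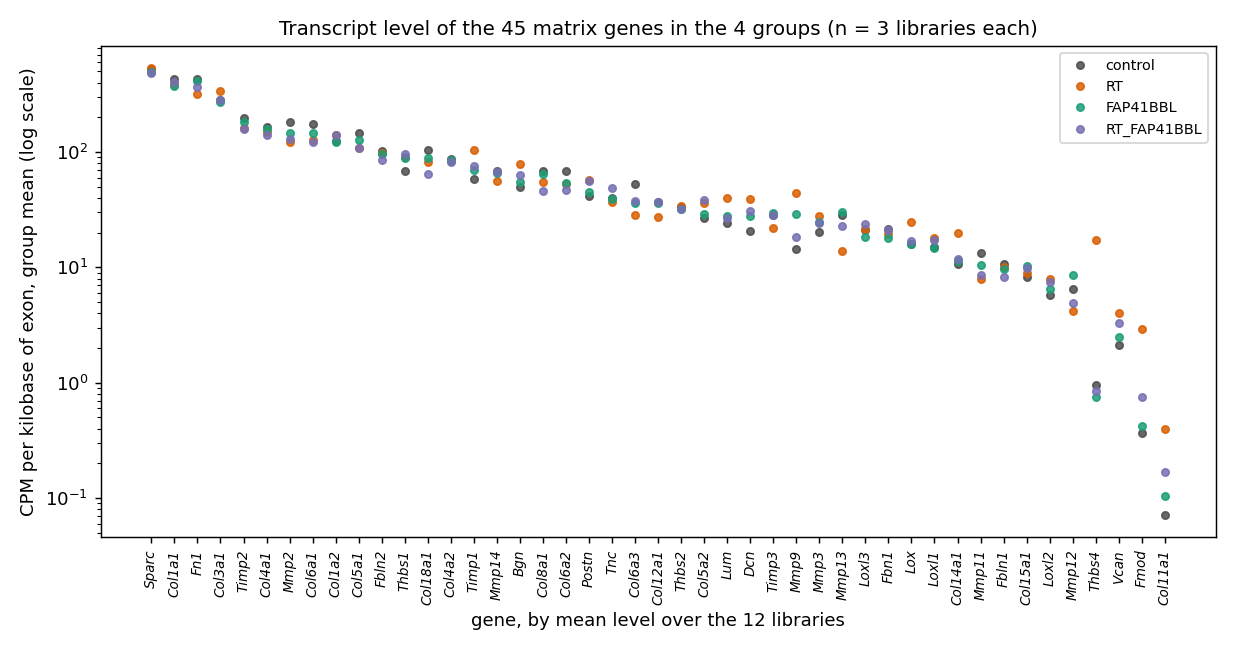
Mean level of each of the 45 matrix genes in the 4 groups (n = 3 libraries each), in CPM per kilobase of exon on a log axis, ordered by the mean over 12 libraries. The order runs from Sparc at 509 to Col11a1 at 0.185 CPM per kilobase, and the 4 group points lie close together for most genes, with RT set apart for Thbs4, Fmod and Col11a1.

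Compared per length of transcript, the most abundant member was Sparc, a collagen-binding glycoprotein, with a mean of 509 CPM per kilobase over the 12 libraries. Col1a1, the main chain of type I collagen, followed at 399, Fn1 (fibronectin) at 383 and Col3a1 at 294 CPM per kilobase. The highest members of the other classes were Timp2 at 175, Col4a1 at 153, Mmp2 at 144, Col6a1 at 143, Bgn at 61.4 and Loxl3 at 21.1 CPM per kilobase. At the lower end stood Thbs4 at 4.98, Vcan at 2.99, Fmod at 1.12 and Col11a1 at 0.185 CPM per kilobase. Genes also differed in how much they varied between libraries: the highest library was 1.26 times the lowest for Sparc, 1.77 times for Col1a1 and 2.41 times for Fn1, against 9.59 times for Col11a1, 25.3 times for Fmod and 120 times for Thbs4.

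After radiotherapy alone, 6 of 45 genes passed the test against control (edgeR quasi-likelihood test, adjusted p under 0.05), which is 13.3% beside 9.62% of all genes tested. Thbs4, Fmod, Col11a1 and Timp1 rose (4 of 45, beside 6.57% of all genes tested), and Mmp2 and Mmp11 fell (2 of 45, beside 3.05%). The median log2 change of the 45 genes was 0.01, with 23 above 0 and 22 below, and that of all genes tested was -0.0019. Their median size of change, whatever its direction, was 0.44 on the log2 scale beside 0.22 over all genes. In 17 of 45 genes the RT and control libraries did not overlap (10 above and 7 below), beside 26% of all genes tested. Without control replicate 1, the low library described above, 5 of 45 passed: Thbs4, Fmod and Timp1 rose, and Mmp11 and Col5a1 fell. Over all genes 1053 passed in that fit, beside 1709 with all libraries.

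The agonist alone changed none of the 45 genes by the edgeR test, where 0.00563% of all genes tested passed, a single gene. At an unadjusted p under 0.05 the count was 2 of 45, beside 5.17% of all genes, Mmp2 (log2 difference -0.32, 95% interval -0.61 to -0.02) and Mmp11 (-0.34, -0.63 to -0.05). DESeq2 and limma-voom also passed 0 of the 45, where over all genes they passed 48 and 1. Of the 4 genes highest per length, the intervals ran from -0.35 to 0.13 for Sparc, from -0.63 to 0.24 for Col1a1, from -0.70 to 0.57 for Fn1 and from -0.81 to 0.69 for Col3a1. With both treatments, 4 of 45 genes passed against control, 8.89% beside 7.91% of all genes, and all 4 fell (Col18a1, Col8a1, Mmp2 and Mmp11, beside 2.31% of all genes lower). In 15 of 45 genes the RT_FAP41BBL and control libraries did not overlap (6 above and 9 below), beside 38.5% of all genes tested. Without control replicate 1, 5 of 45 passed, all lower: Col18a1, Col8a1, Mmp11, Col5a1 and Col6a1. Over all genes 790 passed in that fit in either direction, beside 1404 with all libraries.

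**Figure D2:**
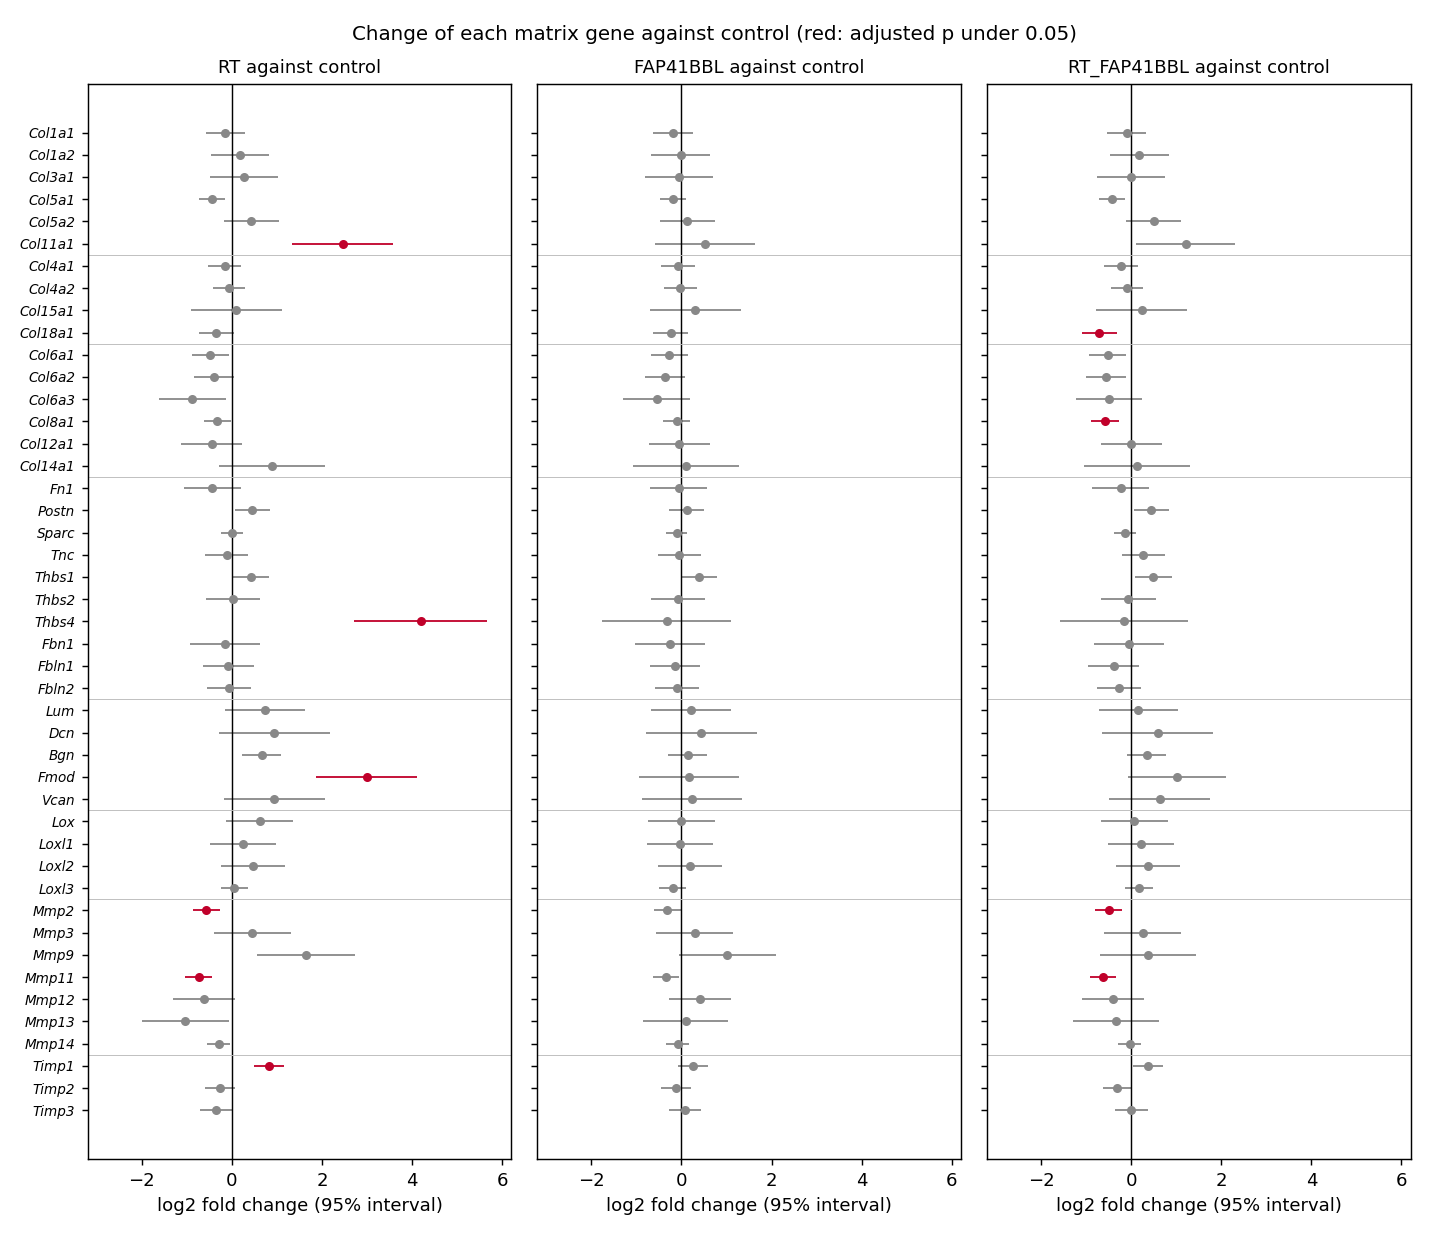
Log2 fold change of each of the 45 genes against control with its 95% interval, for RT, FAP41BBL and RT_FAP41BBL (n = 3 libraries a group), with red for an adjusted p under 0.05. Of the genes, 6 are red with RT, none with FAP41BBL and 4 with RT_FAP41BBL. Most intervals span 0.

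Of the 6 fibrillar collagens, which form the load-bearing fibres, 1 passed the test in RT. Library values are given in the order of replicates 1, 2 and 3 throughout. Col1a1 read 2491, 3000 and 2969 CPM in control, 2149, 2363 and 3132 in RT, 1896, 2151 and 3354 with FAP41BBL, and 2520, 2772 and 2625 with RT_FAP41BBL. These ranges overlapped in every pair of groups, and the log2 difference of RT from control was -0.15 (95% interval -0.58 to 0.29, adjusted p = 0.713). Col1a2 and Col3a1, the partner chain of type I collagen and the chain of type III collagen, had differences of 0.18 (-0.47 to 0.83) and 0.26 (-0.49 to 1.02). The ratio of Col1a1 to Col1a2 per kilobase lay between 2.61 and 4.10 in all 12 libraries.

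Col11a1, a minor fibrillar chain known from cartilage and from tumour fibroblasts, read 0.674, 1.39 and 0.687 CPM in control and 2.27, 6.40 and 6.46 CPM in RT. All 3 RT libraries lay above all 3 control libraries. In FAP41BBL it read 0.906, 0.984 and 2.09 CPM, and with RT_FAP41BBL 2.42, 1.12 and 2.87 CPM, so the latter group overlapped both control and RT. Its rise in RT was 5.48-fold (log2 2.45 ± 0.51 SE, n = 3 per group, edgeR adjusted p = 0.012), and it rests on 24 to 264 counts per library over the 12. The call was lost without control replicate 1 (adjusted p = 0.052) or control replicate 3 (adjusted p = 0.053). Col5a1, a chain that sets fibril diameter, stood lower in every RT library (998, 850 and 908 CPM) than in any control library (1014, 1414 and 1300 CPM), but its log2 difference of -0.44 (-0.72 to -0.15) did not pass (edgeR adjusted p = 0.059). In RT_FAP41BBL it read 919, 980 and 894 CPM, with a difference of -0.42 and an edgeR adjusted p of 0.076. Its partner Col5a2 had differences of 0.43 in RT and 0.50 with RT_FAP41BBL, with intervals that included 0.

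Among the 4 basement membrane collagens, none passed in RT and 1 passed with both treatments. Col4a1, a chain of the type IV network, read 940, 1360 and 1407 CPM in control, 1213, 1062 and 1033 in RT, 906, 1246 and 1366 with FAP41BBL, and 1038, 1101 and 1032 with RT_FAP41BBL. The groups overlapped, and its log2 difference in RT was -0.16 (-0.54 to 0.21). Col4a1 and Col4a2, which sit head to head on chromosome 8, kept a ratio per kilobase of 1.56 to 2.04 across libraries. Col18a1, the collagen whose end fragment is endostatin, read 619, 824 and 769 CPM in control and 480, 445 and 434 CPM with RT_FAP41BBL, with no overlap. In RT it read 572, 743 and 423 CPM and with FAP41BBL 641, 543 and 691 CPM, both overlapping control. With both treatments it fell by 0.70 on the log2 scale (95% interval -1.10 to -0.31, edgeR adjusted p = 0.034). This call was lost when control replicate 2 or 3 or RT_FAP41BBL replicate 1, 2 or 3 was left out, where adjusted p lay between 0.072 and 0.130.

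The 6 network and fibril-associated collagens included Col8a1, a short-chain collagen of vessel walls. It read 490, 559 and 571 CPM in control, 473, 467 and 355 in RT, 489, 586 and 432 with FAP41BBL, and 390, 350 and 346 with RT_FAP41BBL. The RT_FAP41BBL libraries lay below every control library and below every FAP41BBL library. Col8a1 fell by 0.58 on the log2 scale with both treatments (-0.88 to -0.27, edgeR adjusted p = 0.026), and the call was lost without control replicate 2 (adjusted p = 0.085) or 3 (0.087) or RT_FAP41BBL replicate 2 (0.108) or 3 (0.114). In RT its difference of -0.32 did not pass (adjusted p = 0.177).

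Type VI collagen, a beaded filament that surrounds cells, has 3 listed chains, and none passed the test over all libraries. Col6a1 read 567, 906 and 837 CPM in control, 639, 535 and 483 in RT, 535, 567 and 813 with FAP41BBL, and 546, 542 and 524 with RT_FAP41BBL, the last group lying below all 3 control libraries. The log2 differences of Col6a1, Col6a2 and Col6a3 in RT were -0.48, -0.39 and -0.88, and with RT_FAP41BBL -0.52, -0.55 and -0.49. All 3 chains were lowest among controls in replicate 1, and without that library Col6a1 passed with RT_FAP41BBL, as given above. Over the 6 genes of this class, 5 lay below 0 in RT (median -0.42) and 5 with RT_FAP41BBL (median -0.50), with 0 and 1 past the test. The exception in both was Col14a1, a fibril surface collagen, at 0.88 in RT (-0.30 to 2.06) and 0.13 with RT_FAP41BBL.

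Glycoproteins connect fibres and cells, and 1 of 10 passed in RT. Sparc varied little, at 1996, 2079 and 1945 CPM in control, 2155, 1920 and 1979 in RT, 1704, 1779 and 2093 with FAP41BBL, and 1828, 1926 and 1722 with RT_FAP41BBL. Its log2 difference in RT was 0.01 with a 95% interval from -0.23 to 0.25. Fn1 had a difference of -0.44 (-1.07 to 0.20), with control replicate 1 at 2813 CPM beside 5569 and 6767 CPM in the other 2 control libraries. Postn (periostin, a product of activated fibroblasts) lay above every control library in all 3 RT libraries, at a log2 difference of 0.45 (0.07 to 0.84), and again with RT_FAP41BBL at 0.45 (0.06 to 0.84). Neither passed, with edgeR adjusted p of 0.135 and 0.148. Thbs1, an activator of latent TGF-beta, had differences of 0.41, 0.39 and 0.50 in RT, FAP41BBL and RT_FAP41BBL, none past the test.

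Thbs4 is a pentameric thrombospondin made in tendon and muscle. The gene lies on chromosome 13 from 92888098 to 92931326 on the minus strand of GRCm39. It read 3.48, 4.20 and 1.70 CPM in control, 52.7, 62.5 and 56.0 CPM in RT, 1.94, 0.521 and 5.02 CPM with FAP41BBL, and 2.75, 4.12 and 1.55 CPM with RT_FAP41BBL. The 3 RT libraries lay far above all 9 others, and the other 3 groups overlapped. Thbs4 rose 18.2-fold in RT (log2 4.19 ± 0.66 SE, 95% interval 2.71 to 5.67, edgeR adjusted p = 0.0054). Tnmd, the defining gene of the tendon list, was at 0 in all 3 control libraries and at 0.419 ± 0.287 CPM in RT (SD, n = 3), and did not exceed 0.748 CPM in any library. Chad read 0.0277 ± 0.0275 CPM in control and 0.457 ± 0.683 in RT, and Kera 0.0271 ± 0.0012 and 0.116 ± 0.0752. Tnmd, Chad and Kera are near the floor, with 64, 61 and 63 counts over the 12 libraries, 50 of those of Chad in 1 library. Comp read 4.00 ± 0.418 CPM in control and 2.13 ± 1.44 in RT, and Mkx 12.8 ± 3.11 and 10.9 ± 1.59. Only 3 of the 6 tendon genes were tested, and all 3 lay below 0 in RT (log2 -0.91 to -0.23), none past the test. The 6 tendon genes summed to 33.8 to 59.8 CPM in RT, below the 64.0 to 73.4 CPM of control, and most of that sum was Scx (50.3 ± 2.87 CPM in control, 29.8 ± 14.2 in RT). The part of tendon in Thbs4 was not tested. The 3 RT libraries had the highest muscle scores, each the mean log2 CPM of the 20 muscle genes, and the highest Thbs4 of the 12. Among the 9 libraries outside RT, FAP41BBL replicate 3 had both the highest muscle score (6.21) and the highest Thbs4, and the lowest Thbs4 was in FAP41BBL replicate 2, whose score of 2.07 was the second lowest. The order did not hold throughout: RT_FAP41BBL replicate 1 had a score of 5.21 and less Thbs4 (2.75 CPM) than control replicate 1 (4.60; 3.48 CPM), and control replicate 3, with the lowest score (1.55), had more Thbs4 (1.70 CPM) than RT_FAP41BBL replicate 3 (4.45; 1.55 CPM).

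The 250 bases before the Thbs4 start site are shown because this gene had the largest change of the 45, with capitals marking matches to CATTCC, the core of the M-CAT element known from muscle promoters. The sequence is from RefSeq on GRCm38.p6, chr13:92794819-92795068, minus strand. The files use GRCm39, so these coordinates are not those above.
Thbs4: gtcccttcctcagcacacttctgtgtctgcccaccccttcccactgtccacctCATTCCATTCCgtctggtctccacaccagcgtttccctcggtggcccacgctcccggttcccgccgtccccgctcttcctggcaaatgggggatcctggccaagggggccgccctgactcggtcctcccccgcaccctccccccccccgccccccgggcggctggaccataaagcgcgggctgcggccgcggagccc
The motif was searched on both strands. It has 2 overlapping matches here, the first starting 197 bases before the start site, and 12.6% of 32851 promoters of this length hold at least 1. Of the 37 promoters that the RefSeq table gave for 31 of the 45 genes, 5 held it, those of Thbs4, Timp1, Col18a1, Col3a1 and Col6a2. A match is a description of the letters only.

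All 5 proteoglycans, which coat collagen fibrils or swell the matrix, lay above 0 in RT with a median log2 difference of 0.94, and 1 of 5 passed the test. Fmod (fibromodulin, which organises collagen fibrils in tendon and other tissues) read 0.954, 1.83 and 0.879 CPM in control, 7.64, 8.25 and 13.4 CPM in RT, 0.529, 0.984 and 2.64 CPM with FAP41BBL, and 1.94, 2.52 and 3.03 CPM with RT_FAP41BBL. The RT libraries were above all others, and the RT_FAP41BBL libraries were also above every control library. Fmod rose 7.95-fold in RT (log2 2.99 ± 0.51 SE, 95% interval 1.88 to 4.11, edgeR adjusted p = 0.0050). With both treatments its log2 difference from control was 1.03 (-0.06 to 2.11, edgeR adjusted p = 0.240).

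Bgn (biglycan), the most abundant proteoglycan of the list per length, read 254, 347 and 306 CPM in control, 436, 417 and 579 in RT, 247, 310 and 441 with FAP41BBL, and 350, 405 and 398 with RT_FAP41BBL. Every RT library and every RT_FAP41BBL library lay above every control library. The log2 difference in RT was 0.66 (0.23 to 1.09) and missed the threshold (edgeR adjusted p = 0.057). In RT_FAP41BBL it was 0.35 (-0.08 to 0.78). Lum (lumican), Dcn (decorin) and Vcan (versican) had differences of 0.73, 0.94 and 0.94 in RT, with adjusted p between 0.292 and 0.339, and were high also in FAP41BBL replicate 3. Dcn, for example, read 336 CPM in that library beside 79.7 and 70.4 CPM in the other 2 of its group.

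For comparison with Thbs4, the 250 bases before the Fmod start site (RefSeq, GRCm38.p6, chr1:134037004-134037253, plus strand) hold no match to CATTCC. They are shown because Fmod had the lowest adjusted p of the 45 genes in RT, and all letters are in lower case since no motif was marked.
Fmod: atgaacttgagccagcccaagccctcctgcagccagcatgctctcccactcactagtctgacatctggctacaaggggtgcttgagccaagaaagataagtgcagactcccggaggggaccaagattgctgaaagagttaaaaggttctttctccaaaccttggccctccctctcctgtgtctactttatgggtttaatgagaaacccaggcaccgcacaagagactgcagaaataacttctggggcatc

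The 4 lysyl oxidases cross-link collagen and elastin. All 4 lay above 0 in RT with a median of 0.36, and none passed the test in any comparison. Loxl3, the highest of them per length, read 76.9, 97.8 and 114 CPM in control, 106, 104 and 88.8 in RT, 77.9, 92.5 and 81.6 with FAP41BBL, and 99.8, 122 and 105 with RT_FAP41BBL. These ranges overlapped control in each case, and its log2 difference in RT was 0.05 (-0.25 to 0.36). Lox had the largest difference, 0.62 in RT (-0.13 to 1.36, adjusted p = 0.301), with control replicate 2 at 116 CPM inside the RT range of 109 to 131 CPM.

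Of the 7 metalloproteinases, 5 lay below 0 in RT, at a median of -0.57, and 2 passed the test, both lower. Mmp2 (gelatinase A, a stromal enzyme that digests denatured collagen and basement membrane) was the highest of them per length. It read 710, 548 and 576 CPM in control, 447, 329 and 460 in RT, 471, 482 and 520 with FAP41BBL, and 433, 432 and 435 with RT_FAP41BBL. Every library of the 3 treated groups lay below every control library. Mmp2 fell by 0.57 on the log2 scale in RT (95% interval -0.87 to -0.27, edgeR adjusted p = 0.021) and by 0.50 with RT_FAP41BBL (-0.79 to -0.20, adjusted p = 0.044), and its difference with FAP41BBL was -0.32 (adjusted p = 0.940). Control replicate 1 was the highest of the 12 for Mmp2, unlike for most of the 45 genes. Without it the differences were -0.45 in RT (adjusted p = 0.083) and -0.37 with RT_FAP41BBL (adjusted p = 0.161). The RT call was also lost without RT replicate 2 (0.053), and the RT_FAP41BBL call when 1 of 8 libraries was left out: any of the 3 of control, any of the 3 of RT_FAP41BBL, or FAP41BBL replicate 2 or 3 (adjusted p 0.052 to 0.161).

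Mmp11 (stromelysin 3, typical of fibroblasts near carcinoma cells) lies on chromosome 10 from 75759056 to 75772330 on the minus strand of GRCm39. It read 34.5, 36.9 and 39.7 CPM in control, 27.6, 21.1 and 17.8 in RT, 30.5, 28.4 and 28.7 with FAP41BBL, and 23.0, 24.4 and 24.7 with RT_FAP41BBL. Again every treated library lay below every control library. It fell by 0.74 on the log2 scale in RT (-1.03 to -0.45, edgeR adjusted p = 0.0059) and by 0.62 with RT_FAP41BBL (-0.92 to -0.33, adjusted p = 0.016). The RT call held when each of the 12 libraries was left out in turn. The RT_FAP41BBL call was lost when control replicate 2 or 3 or RT_FAP41BBL replicate 1, 2 or 3 was left out (adjusted p 0.055 to 0.062). Of the 10 fibroblast markers, 8 had log2 differences above 0 in RT. Of these 8, Acta2 read 154 ± 70.8 CPM in control, 210 ± 76.5 in RT and 150 ± 6.04 with RT_FAP41BBL (SD, n = 3). In the same order Tagln read 14.1 ± 4.12, 29.5 ± 6.97 and 26.5 ± 4.42 CPM, and Pdpn 16.2 ± 3.20, 31.0 ± 2.67 and 19.0 ± 0.962. The other 2, Pdgfrb and Pdgfra, lay below 0 in RT. Pdgfrb read 231 ± 54.9, 139 ± 45.4 and 140 ± 11.2 CPM, and Pdgfra 154 ± 20.3, 124 ± 8.59 and 131 ± 16.4. With RT_FAP41BBL against control, 4 of the 10 lay above 0 and 6 below. The summed level of the list, given above, overlapped control in each treated group. The part of fibroblast content in the lower Mmp2 and Mmp11 was not tested.

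Mmp9 (gelatinase B, carried by neutrophils and macrophages) lay above control in RT, reading 203, 159 and 112 CPM beside 34.7, 54.2 and 62.9 CPM in control. The groups did not overlap, but the log2 difference of 1.64 (0.55 to 2.73) missed the threshold (edgeR adjusted p = 0.067). FAP41BBL gave 45, 163 and 98.3 CPM and RT_FAP41BBL 85.1, 76.2 and 35.2 CPM, both overlapping control. The neutrophil list summed to 34.9 to 75.5 CPM in RT and 29.8 to 33.5 CPM in control, and to 74.1 to 94.8 CPM with RT_FAP41BBL. Most of that sum was Csf3r, with means of 26.3 CPM in control, 41.4 in RT and 77.2 with RT_FAP41BBL. In the same order the means of Cxcr2 were 1.22, 1.36 and 1.17 CPM. Of the 5 genes of the list that were tested, 5 lay above 0 in RT against control. With RT_FAP41BBL against control 4 lay above 0 and 1 below. Within the list Ly6g was at 0 in 8 libraries and S100a8 was at most 3.71 CPM. The macrophage list summed to 836 to 1120 CPM in control, 781 to 1196 CPM in RT, which overlapped control, and 1262 to 1510 CPM with RT_FAP41BBL. The part of these cells in the Mmp9 values was not tested.

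Mmp13 and Mmp12, a collagenase and the macrophage elastase, had log2 differences of -1.04 (-2.01 to -0.07) and -0.61 (-1.30 to 0.07) in RT, with all RT libraries below all control libraries and neither past the test. Mmp3 (stromelysin 1) stood at 0.45 (-0.40 to 1.30) and Mmp14, the membrane enzyme that activates Mmp2, at -0.30 (-0.55 to -0.04, adjusted p = 0.135). Mmp3, Mmp12 and Mmp13 are neighbours on chromosome 9.

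Promoter stretches of 3 metalloproteinases are shown, because the class was not uniform in RT. Mmp11 had its lowest adjusted p. Mmp13 and Mmp3 lie on either side of Mmp12 and had differences of opposite sign, neither past the test. Mmp12, not shown, lay below 0 like Mmp13 (log2 -0.61). Capitals mark GGGCGG, the GC box, in Mmp11 and TGANTCA, the AP-1 element, in the other 2, searched on both strands. All are from RefSeq on GRCm38.p6, at chr10:75932503-75932752 (minus strand), chr9:7272414-7272513 and chr9:7445722-7445821 (plus strand).
Mmp11: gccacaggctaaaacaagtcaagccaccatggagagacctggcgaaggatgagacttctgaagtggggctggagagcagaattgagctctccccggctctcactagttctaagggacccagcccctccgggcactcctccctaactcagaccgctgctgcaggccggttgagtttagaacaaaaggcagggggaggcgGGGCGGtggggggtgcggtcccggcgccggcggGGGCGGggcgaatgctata
Mmp13: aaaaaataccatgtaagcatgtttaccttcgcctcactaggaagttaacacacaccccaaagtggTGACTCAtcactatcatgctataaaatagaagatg
Mmp3: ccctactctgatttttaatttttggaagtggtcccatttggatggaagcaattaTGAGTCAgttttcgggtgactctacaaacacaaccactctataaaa
Mmp13 and Mmp3 each have 1 AP-1 type match, 35 and 46 bases before the start site. Over 250 bases, 4 of 37 promoters of the listed genes hold such a match (Mmp3, Mmp12, Mmp13 and Col6a1), beside 6.75% of all 32851. The GC box is in 21 of 37, beside 32.7% of all.

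Of the 3 inhibitors, Timp1 rose in RT and Timp2 and Timp3 did not pass the test. Timp1, an inducible inhibitor that also binds pro-Mmp9, read 51.4, 52.7 and 51.7 CPM in control, 113, 93.7 and 69.5 in RT, 61.7, 57.5 and 67.5 with FAP41BBL, and 64.1, 77.5 and 61.0 with RT_FAP41BBL. The control libraries lay close together, and every library of the 3 treated groups lay above them. Timp1 rose 1.77-fold in RT (log2 0.83 ± 0.15 SE, 95% interval 0.50 to 1.16, edgeR adjusted p = 0.0060), and the call held when each of the 12 libraries was left out in turn. In RT_FAP41BBL the difference was 0.38 (0.05 to 0.71, adjusted p = 0.151) and with FAP41BBL 0.26 (-0.07 to 0.59). Timp2, the inhibitor that takes part in activating Mmp2, read 756, 834 and 899 CPM in control, 880, 622 and 572 in RT, 690, 812 and 796 with FAP41BBL, and 647, 731 and 644 with RT_FAP41BBL. Its log2 differences were -0.26 in RT and -0.30 with RT_FAP41BBL, both with intervals that included 0. Timp1 overlaps Syn1 on the opposite strand, and the counting used the strand.

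The shares of single genes within these classes are given next. Timp1 made up 19.3% to 22.3% of the 3 inhibitors per kilobase in control, 32.7% to 39.2% in RT, 22.3% to 26.7% with FAP41BBL and 27.5% to 30.1% with RT_FAP41BBL. RT and RT_FAP41BBL overlapped neither control nor each other. Mmp2 made up 50.6% to 60.6% of the 7 metalloproteinases in control and 42.3% to 47.3% in RT. The summed metalloproteinases over the summed inhibitors, per kilobase, gave 1.10 to 1.34 in control, 0.857 to 1.21 in RT, 1.05 to 1.19 with FAP41BBL and 0.967 to 1.10 with RT_FAP41BBL, so RT overlapped control on this ratio. These are ratios of transcripts, given as a description.

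The Timp1 promoter (RefSeq, GRCm38.p6, chrX:20869916-20870165, plus strand) is shown as that of the inhibitor that rose. Its 1 match to CATTCC lies on the minus strand, so it reads GGAATG in capitals, starting 247 bases before the start site.
Timp1: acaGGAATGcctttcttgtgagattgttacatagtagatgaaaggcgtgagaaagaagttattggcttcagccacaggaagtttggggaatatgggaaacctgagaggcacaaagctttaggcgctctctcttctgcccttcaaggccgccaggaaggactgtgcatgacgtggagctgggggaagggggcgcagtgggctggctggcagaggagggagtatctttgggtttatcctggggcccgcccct

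**Figure D3:**
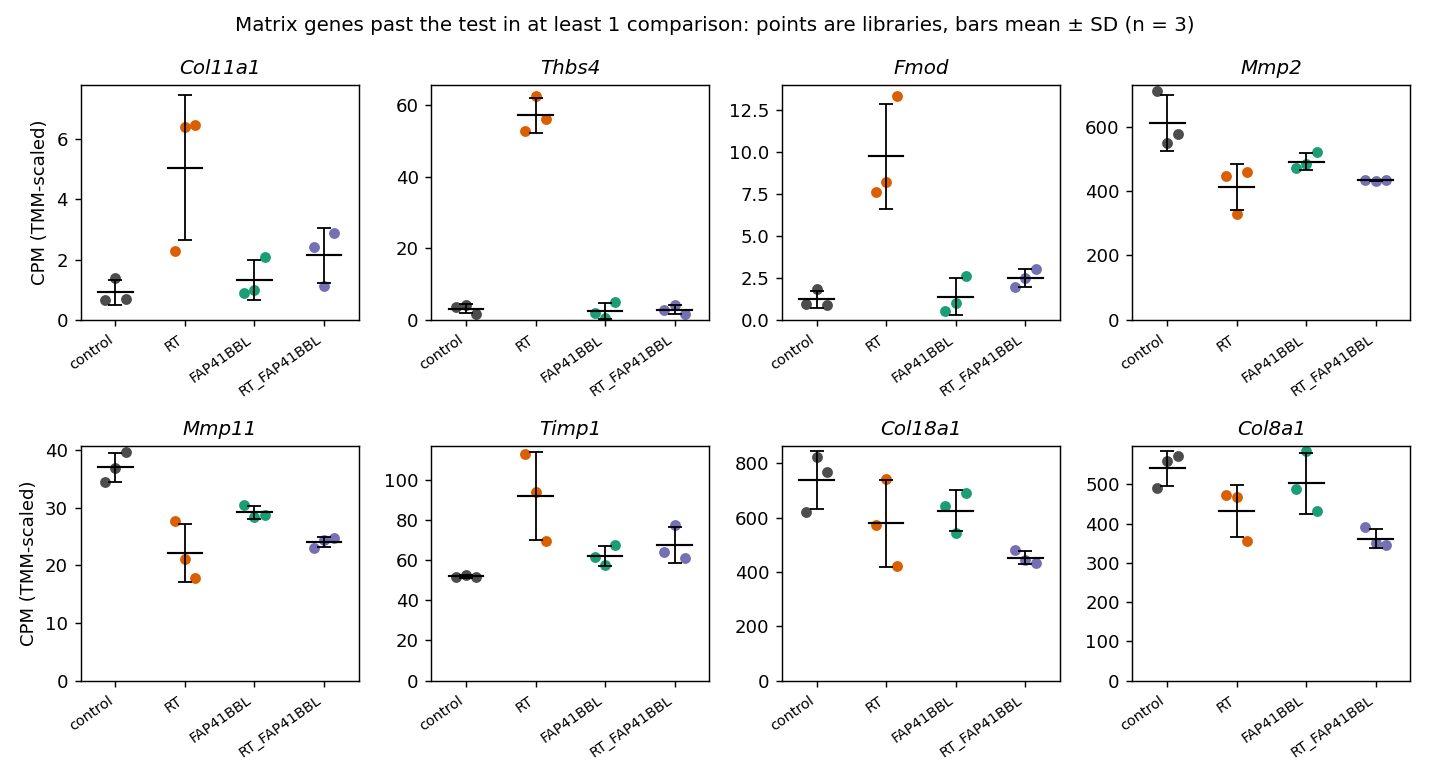
CPM of the 8 genes that passed the test in at least 1 comparison, by group. Points are the 3 libraries, lines the mean and bars the SD (axes start at 0). Thbs4, Fmod and Col11a1 are highest in RT, Timp1 is lowest in control, and Mmp2 and Mmp11 are highest in control.

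Adding the agonist to radiotherapy gave 2 of 45 genes past the test against RT alone, 4.44% beside 5.76% of all genes tested, and both were lower (beside 2.4% of all genes lower). Thbs4 fell by 4.34 on the log2 scale (-5.84 to -2.85, edgeR adjusted p = 0.011) and Fmod by 1.97 (-3.02 to -0.91, adjusted p = 0.039). The Thbs4 call was lost without RT_FAP41BBL replicate 3 (adjusted p = 0.063). The Fmod call was lost when control replicate 1 (0.053) or any single library of the 6 compared was left out (0.055 to 0.130). Timp1 and Col11a1 had differences of -0.45 (adjusted p = 0.099) and -1.24 (0.15). The log2 difference was 0.07 for Mmp2 (-0.22 to 0.37) and 0.12 for Mmp11 (-0.18 to 0.41). Of the 4 genes highest per length, Col1a1 had an interval from -0.39 to 0.49, Sparc from -0.39 to 0.10, Fn1 from -0.43 to 0.84 and Col3a1 from -1.03 to 0.48. This comparison shares its RT libraries with RT against control. All 20 skeletal muscle genes also lay below 0 in it, at a median log2 difference of -3.48, with 1 past the test (5% beside 2.4% of all genes lower). The muscle scores of RT and RT_FAP41BBL did not overlap, so the added agonist and muscle content cannot be told apart here. With the muscle score as a term, Thbs4 stood at -2.62 (edgeR adjusted p = 0.086) and Fmod at -0.89 (0.455). In that fit 0.00563% of all genes passed.

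Adding radiotherapy to the agonist gave 0 of 45 genes by edgeR, where 0.946% of all genes passed. At an unadjusted p under 0.05 there were 4 of 45, beside 13.5% of all genes (Col18a1 at -0.47, Col8a1 at -0.47, Loxl3 at 0.37 and Mmp12 at -0.80), limma-voom passed 0 and DESeq2 passed 1, Col8a1, of 774 genes it passed in all. The interaction asks whether the change with radiotherapy differed with and without the agonist. It gave 0 of 45 by edgeR, where 0.152% of all genes passed. At an unadjusted p under 0.05 there were 6 of 45, beside 14.1% of all genes, limma-voom passed 0, and DESeq2 passed 3 (Thbs4, Fmod and Mmp9) of 633 in all. By edgeR the largest was Thbs4 at -4.01 (-6.02 to -2.0, adjusted p = 0.104), followed by Mmp9 at -2.28 (adjusted p = 0.185) and Fmod at -2.14 (adjusted p = 0.199).

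**Figure D4:**
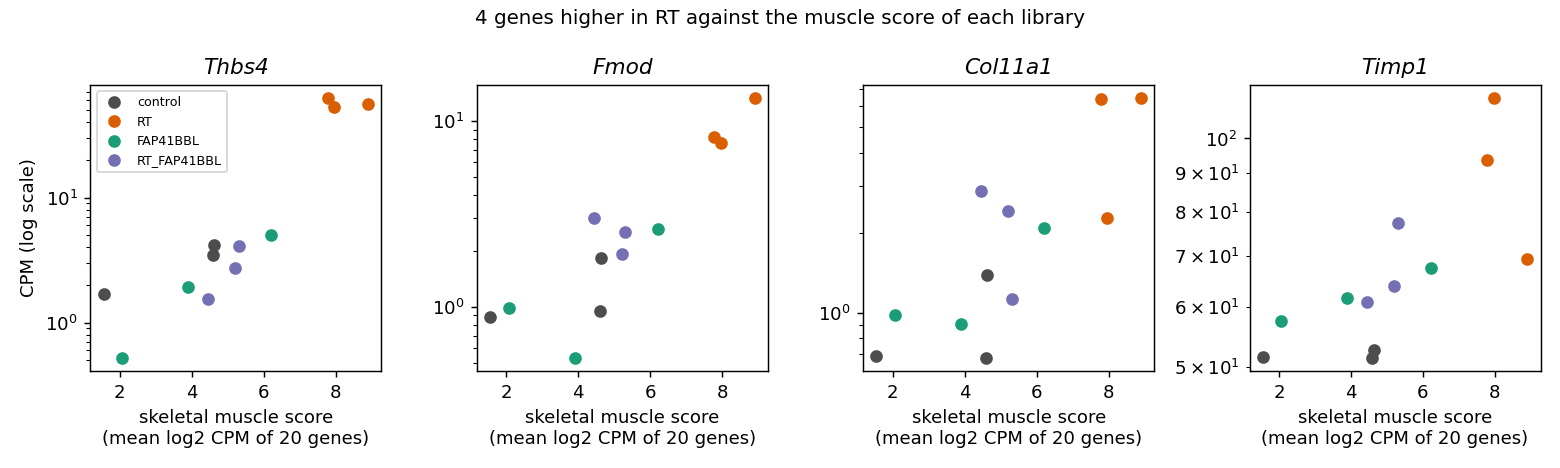
CPM (log axis) of the 4 genes that rose in RT against the skeletal muscle score of each of the 12 libraries, coloured by group. The 3 RT libraries have scores of 7.78 to 8.90, above the other 9 libraries, whose highest score is 6.21.

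The skeletal muscle score was 7.96, 7.78 and 8.90 in RT, 4.60, 4.63 and 1.55 in control, 3.90, 2.07 and 6.21 with FAP41BBL, and 5.21, 5.31 and 4.45 with RT_FAP41BBL. RT did not overlap any other group, so radiotherapy alone and muscle content cannot be told apart for the genes that move with both. With the score as a term in the fit, 0 of 45 genes passed in RT, where 0.00563% of all genes passed, a single gene, beside 9.62% without the term. There Thbs4 had a log2 difference of 1.76 (adjusted p = 0.247), Fmod 1.53 (0.427) and Col11a1 1.47 (0.548), each smaller than without the term. Timp1 stood at 0.74 (0.326), Mmp2 at -0.77 (0.248) and Mmp11 at -0.57 (0.384), close to or larger than their values without it except for Mmp11. In RT_FAP41BBL against control, where the muscle scores were 4.45 to 5.31 beside 1.55 to 4.63, 4.69% of all genes passed with the term. Mmp11 still passed at -0.57 (adjusted p = 0.049), while Mmp2 at -0.56 (0.055), Col18a1 at -0.71 (0.070) and Col8a1 at -0.46 (0.072) did not. Among the RT libraries Timp1 was lowest, at 69.5 CPM, in the library with the highest score. Thbs4 was highest, at 62.5 CPM, in the RT library with the lowest score of that group (7.78). What the order within these libraries owes to muscle content was not tested.

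Genes around these 45 were read from lists of related function. Their counts stand beside all genes tested, of which 6.57% were higher and 3.05% lower in RT. With RT_FAP41BBL against control these shares were 5.59% and 2.31%. Of 26 tested genes that make and process collagen (prolyl and lysyl hydroxylases, chaperones and propeptide enzymes), 1 passed in RT and with RT_FAP41BBL, Bmp1, the enzyme that trims procollagen, at -0.42 and -0.41 (edgeR adjusted p = 0.011 and 0.015). The median of that list was -0.06 in RT. Of 22 other collagens tested, 2 rose and 2 fell in RT. Col22a1, a collagen of the muscle and tendon junction, rose by 4.11 (adjusted p = 0.0035) and Col8a2 by 1.6, while Col7a1 and Col4a5 fell by 0.73 and 0.83 on the log2 scale. Of 21 laminins and other basement membrane genes, 2 rose in RT (Smoc2 at 3.45 and Frem2 at 2.63) and 0 fell. Of 16 elastic fibre genes, Fbln7 rose (1.46) and Emilin1 fell by 0.70 in RT. Of 16 other proteoglycans and hyaluronan genes tested, 0 passed in RT by edgeR (6 at an unadjusted p under 0.05, beside 24.2% of all genes), and Srgn rose (0.72) with RT_FAP41BBL.

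The matricellular list had 3 of 18 genes higher and 0 lower in RT, beside 6.57% and 3.05% of all genes tested. The 3 were Ccn1 (0.89), Spp1 (osteopontin, 0.95) and Vtn (vitronectin, 2.88). With RT_FAP41BBL against control 2 of the 18 were higher and 2 lower, beside 5.59% and 2.31% of all genes. Between RT and RT_FAP41BBL 2 of the 18 were higher, beside 3.36% of all genes, Tgfbi (0.68) and Tnn (1.82). Another 2 were lower, beside 2.4% of all genes. These were Spp1 and Vtn, which fell by 1.06 and 2.27 on the log2 scale (edgeR adjusted p = 0.011 and 0.023). Of 30 other metalloproteinase, ADAMTS and inhibitor genes tested, 4 rose and 3 fell in RT, 23.3% beside 9.62% of all genes. With RT_FAP41BBL against control 2 of the 30 rose and 3 fell, 16.7% beside 7.91% of all genes. Adamts7 and Adamts10 fell by 0.82 and 0.77 in RT and by 0.72 and 0.49 with RT_FAP41BBL, the same direction as Mmp2 and Mmp11. Mmp8 and Adam8 rose in RT (1.67 and 0.73). Mmp8 read 0.567 ± 0.045 CPM in control, 1.81 ± 0.754 in RT and 1.68 ± 0.400 with RT_FAP41BBL (SD, n = 3). Among 26 matrix receptors, 2 rose and 2 fell in RT, 15.4% beside 9.62% of all genes. Itga7, the laminin receptor of muscle fibres, rose by 2.02 (edgeR adjusted p = 0.00031).

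The plasminogen system and cathepsins, proteases that act on matrix outside the metalloproteinase family, had 7 of 16 genes higher and 0 lower in RT, 43.8% of the list beside 6.57% of all genes higher. The 4 with the smallest p were Plau (urokinase, 0.85, edgeR adjusted p = 0.0015), Serpine2 (1.01), Plaur (the urokinase receptor, 0.76) and Ctsl (0.55). In RT_FAP41BBL 8 of 16 were higher and 0 lower, beside 5.59% of all genes higher, led by Ctsh (1.22), Ctss (1.26), Ctsb (0.85) and Serpine2 (0.73). Ctsh and Ctss also passed against RT (0.99 and 0.95) and against FAP41BBL (1.01 and 1.00). Cathepsins H and S are abundant in macrophages and other antigen-presenting cells. Of 6 macrophage markers, 4 lay above 0 and 2 below with RT_FAP41BBL against control. Higher past the test were 2 of 6, Adgre1 at 1.33 and Cd68 at 0.83, beside 5.59% of all genes. Mrc1 read 236 ± 61.7 CPM in control and 195 ± 54.3 with RT_FAP41BBL, and Cd163 40.4 ± 19.6 and 40.2 ± 20.1 (SD, n = 3). The part of macrophages in the cathepsin values was not tested.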

How the data were processed

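Each library has 1 deposited table of raw counts per gene. Per the file headers, featureCounts 1.6.0 counted read pairs over exons by gene with the reverse strand setting and GENCODE M33. The submitters' processing notes name STAR 2.7.9a, FastQC 0.11.8, edgeR, limma and GRCm39, and the labels' protocols name a TruSeq stranded mRNA kit. Symbols were taken by gene identifier and named 51948 of 56884 genes (91.3%).

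Counts were analysed with edgeR 4.0.16 in R 4.3.3: filterByExpr, TMM, 1 model with 4 groups over 12 libraries (8 residual degrees of freedom, common biological coefficient of variation 0.205) and the quasi-likelihood test with robust fitting, adjusted by Benjamini-Hochberg over 17757 genes at 0.05. Standard errors are the log2 fold change over the root of F, and intervals are 95% intervals from them. Scores use a prior count of 2. No 2 libraries of the same group agreed within sampling noise, and pairs across groups were not compared. The code was tested on simulated data. The genes and lists were chosen with earlier results of these data known. All 45 genes may be named, and library values are given for those past the threshold and for the highest of each class per kilobase, with further genes near the threshold added after their values were seen; of each other list at most 4 genes a comparison are named, by smallest p. Alternatives were DESeq2 1.42.0, limma-voom (limma 3.58.1), other scalings and filters, the replicate block, a muscle score, the groups compared alone, and leaving out each library. RefSeq promoters (GRCm38.p6) are given by their own coordinates.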

Additional observations from a re-analysis of the deposited data

How the results depend on the processing

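Over all alternatives run, none of the 12 called differences changed sign. With DESeq2, 10 of the 45 genes passed in RT against control, 7 in RT_FAP41BBL against control, 1 in RT_FAP41BBL against FAP41BBL and 3 in the interaction, beside 6, 4, 0 and 0; over all genes DESeq2 passed 2507, 2341, 774 and 633, beside 1709, 1404, 168 and 27. With the muscle score as a term, 0 passed in RT, 1 in RT_FAP41BBL against control and 0 in RT_FAP41BBL against RT, where over all 17757 genes 1, 832 and 1 passed, beside 1709, 1404 and 1022 without it. Fitting only the groups compared gave 8 in RT_FAP41BBL against control (2 higher, 6 lower; 3223 of all genes beside 1404), and Mmp2 no longer passed in RT (adjusted p = 0.100). Without a filter on low counts 1 passed in RT_FAP41BBL against RT, Fmod being lost (adjusted p = 0.084). Leaving out 1 library at a time gave 5 to 9 genes in RT, 0 to 5 in RT_FAP41BBL against control, 0 to 3 in RT_FAP41BBL against RT and 0 to 1 in the interaction. Over all genes, these fits passed 805 to 1987 in RT, beside 1709 with all libraries. In RT_FAP41BBL against control they passed 351 to 1941 of all genes, beside 1404. For RT_FAP41BBL against RT and the interaction, counts over all genes in these fits are not given here. The counts of the 45 genes fell to 0 in RT_FAP41BBL against control without control replicate 2 or 3 or RT_FAP41BBL replicate 2 or 3, and to 1 without RT_FAP41BBL replicate 1. Calls over all genes fell there too, to 351, 703, 442 and 582 in that order, beside 1404 with all libraries. Without RT_FAP41BBL replicate 1 they fell to 914. Same-numbered libraries did not deviate together (correlations of -0.34 to 0.43 over 18 pairs), so the numbers were not taken to pair them. With the replicate block 7 genes passed in RT, Bgn being added, 4 in RT_FAP41BBL against control and 2 in RT_FAP41BBL against RT. Over all genes 1702 passed with the block in RT and 1564 in RT_FAP41BBL against control, beside 1709 and 1404 without it. The other counts stayed within 1.5 times the reported value. Depth limits Col11a1, Thbs4 and Fmod, whose lowest libraries held 24, 18 and 21 counts.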
